A study of Mus musculus with 30 samples.

Results

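The genes described here are 10 members of the mammalian circadian clock, measured in 30 RNA-seq libraries of mouse colon. They were chosen by name, as the rows of the deposited expression table called Arntl, Npas2, Per1, Per2, Per3, Cry1, Nr1d1, Nr1d2, Dbp and Tef. Each name occurred in 1 row, so that 10 of the 14475 genes in the table are members. All 10 passed the filter on low values in every comparison below.

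The circadian clock is a transcriptional feedback loop that runs in nearly every cell, the epithelial cells of the gut included. BMAL1, the product of Arntl, pairs with CLOCK or NPAS2 and activates genes through E-box elements. Among the activated genes are the Per and Cry repressors, which close the loop, the nuclear receptors Nr1d1 and Nr1d2 (REV-ERBs), which repress Arntl, and the transcription factors Dbp and Tef, which pass the rhythm on through D-box elements. In rhythmic tissues Arntl and Npas2 therefore peak at a different time of day from Dbp, Tef, Nr1d1 and the Per genes. The level of each gene in a tissue taken once depends on when it was taken.

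Ascending and descending colon came from female mice, with 7 control and 8 mutant libraries in each region. The mutants carried floxed C1galt1 and the VillinCre-ERT2 transgene, a Cre recombinase made in gut epithelium and switched on by tamoxifen, on a C3GnT-/- background. C1galt1 and C3GnT (B3gnt6) start the core 1 and core 3 O-glycans, the sugar chains of mucins. The controls are labelled as controls only, and the protocol describes wild-type littermates. Tamoxifen was given to mutants and littermates alike on 5 days, each dose being 0.5 mg or about 20 mg/kg. They were analysed 5 or 10 days later, and the interval is not given for each library. Each region held 5 libraries from each of 3 cages. Cage A was labelled 'C57BL/6 Background' and was 3.4 months old, with 2 control and 3 mutant libraries a region. Cage B was labelled 'Mixed BL/6-129SvJ' and was 2.6 months old, with 3 controls and 2 mutants. Cage C had the same mixed label and was 3.2 months old, with 2 controls and 3 mutants. All mice shared 1 microbiota label. The growth protocol describes every mutant and littermate as being on a mixed background, which does not match the strain label of cage A. The time of day of collection is not given. Cage, strain label, age and collection time cannot be told apart for cage A, and neither can age and collection time for cages B and C.

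Values are FPKM, reads scaled to gene length and library size, and differences are on the log2(FPKM + 1) scale, which understates the change of low genes. The depth, estimated from the steps in the low FPKM values, was 1.43 to 8.85 M reads a library. The shallowest were ascending mutants A1, A2 and A3, at 1.48, 1.59 and 1.43 M, and the next lowest library had 3.14 M. In the ascending colon low depth thus went with the mutants of cage A. Its part in the cage differences was not tested. The colonocyte, epithelium and goblet cell markers were abundant in all libraries, while the summed level of 5 posterior Hox genes was 0 to 31.79 FPKM in the ascending and 65.42 to 482.99 FPKM in the descending libraries. Ascending control B1 had the highest of the ascending sums and descending control A2 the lowest of the descending ones, where the next lowest was 284.16 FPKM. Some results that rest on these 2 libraries are given with and without them, and others only with them. C1galt1 overlapped between genotypes in both regions, at 21.49 to 45.71 FPKM in ascending controls and 18.26 to 34.30 FPKM in ascending mutants. B3gnt6 was at most 0.53 FPKM in all mutants, but also at most 0.43 FPKM in all descending controls. In ascending controls it was 0.11 to 19.52 FPKM (median 0.45). Between genotypes C1galt1 did not pass in the ascending or descending colon (limma adjusted p = 0.348 and 0.999). B3gnt6 did not pass in the ascending colon either (0.42). These levels therefore could not check the genotype labels. Nothing in the labels says which libraries came from the same mouse, so p-values measure the spread between these libraries.

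RefSeq promoter windows were at hand for 9 of the 10 genes, and Per2 had none. The 250 bases before the annotated start were searched on both strands for the E-box CACGTG, the D-box TTANGTAA, the cyclic AMP response element TGACGTCA and the RORE, the site of REV-ERBs. Of the windows with a match (GRCm38.p6), 1 is printed for each of 4 genes, 5′ to 3′ on the strand of the gene, because E-boxes and D-boxes are the elements of the loop described above. Capitals mark the matched motif. The first has 2 D-boxes and the others have 1 E-box each.
Per3, chr4:151044666-151044915, minus strand: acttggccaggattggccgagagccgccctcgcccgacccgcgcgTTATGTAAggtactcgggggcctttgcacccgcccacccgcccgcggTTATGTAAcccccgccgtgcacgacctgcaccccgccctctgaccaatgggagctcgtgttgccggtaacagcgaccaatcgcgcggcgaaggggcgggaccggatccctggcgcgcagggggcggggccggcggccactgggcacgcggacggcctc
Per1, chr11:69098699-69098948, plus strand: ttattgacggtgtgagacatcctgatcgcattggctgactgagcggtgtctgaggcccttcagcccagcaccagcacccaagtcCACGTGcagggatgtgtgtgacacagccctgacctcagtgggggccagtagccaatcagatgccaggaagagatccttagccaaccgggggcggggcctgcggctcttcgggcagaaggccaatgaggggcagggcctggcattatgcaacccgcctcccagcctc
Cry1, chr10:85185055-85185304, minus strand: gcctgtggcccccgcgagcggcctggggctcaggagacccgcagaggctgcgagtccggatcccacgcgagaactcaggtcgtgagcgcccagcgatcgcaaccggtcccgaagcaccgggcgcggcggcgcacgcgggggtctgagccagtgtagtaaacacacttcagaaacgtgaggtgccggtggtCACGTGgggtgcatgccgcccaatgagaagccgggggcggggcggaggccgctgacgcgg
Tef, chr15:81811164-81811413, plus strand: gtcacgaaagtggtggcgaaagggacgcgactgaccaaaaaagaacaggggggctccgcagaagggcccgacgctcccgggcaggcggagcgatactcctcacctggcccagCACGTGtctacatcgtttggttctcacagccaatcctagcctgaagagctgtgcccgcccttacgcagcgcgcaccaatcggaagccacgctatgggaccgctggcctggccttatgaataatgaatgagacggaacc

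The E-box lay 166 bases before the start in Per1, 60 bases before it in Cry1 and 138 bases before it in Tef, which also had one in the window of its other annotated start. The D-boxes of Per3 lay 205 and 158 bases before the start. An E-box occurred in 3 of the 9 genes with a window, which is 4 of their 12 windows. Over all genes it occurred in 6.02% of 32851 windows of the same length. A D-box occurred in 1 of the 9 genes, or 1 of the 12 windows, and in 2.06% of all windows. The response element and the RORE occurred in 0 of the 12 windows of the 9 genes and in 1.55% and 0.332% of all windows. A match is a run of letters in this window and says nothing of what binds there.

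Most members were among the most variable genes of the colon in these libraries. In bulk tissue, fewer cells of a type and less RNA per cell cannot be told apart. Over the 15 ascending libraries Dbp ranked 27 of 12178 genes by the SD of its log2 level, at 1.63, against a median SD of 0.27 over all genes. In the descending libraries it ranked 14 of 12219, at 1.81 against 0.31. Tef ranked 99 and 114, Nr1d1 168 and 94, and Per2 175 and 202 in the ascending and descending colon. Npas2 varied least of the 10, at rank 1355 and 3056. The highest FPKM of Dbp was 56.9 times the lowest in the ascending colon and 118 times the lowest in the descending colon, and for Npas2 these ratios were 3.32 and 2.81.

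**Figure D1:**
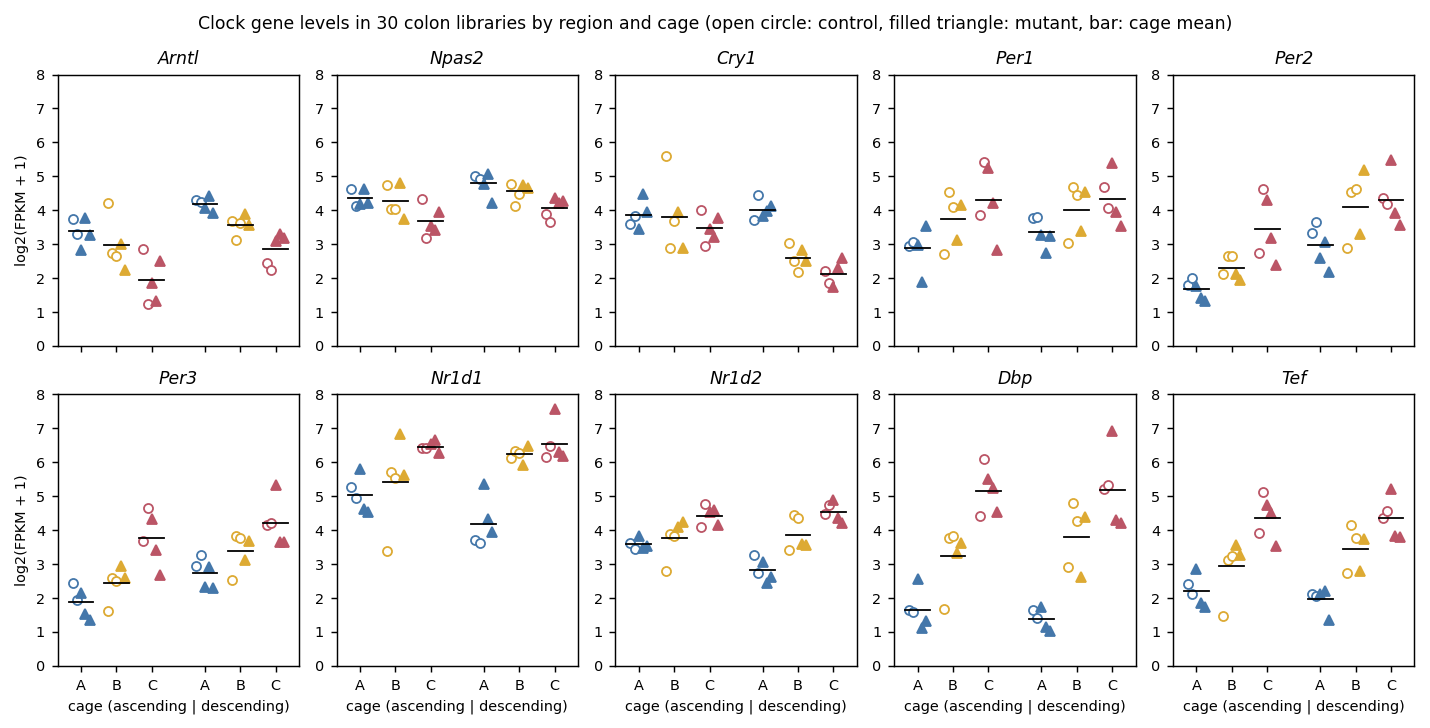
Levels of the 10 clock genes, log2(FPKM + 1), in each of 30 colon libraries, by region (ascending on the left of each panel, descending on the right) and cage. Open circles are controls, filled triangles mutants and bars the mean of 5 libraries. Arntl, Npas2 and Cry1 step down from cage A to cage C, and the other 7 genes step up. The mean of Dbp rises from 1.65 to 5.16 in the ascending colon. The step of Cry1 from cage B to cage C in the ascending colon turned without ascending control B1.

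Part of this variation followed the cage, and the share was not computed. The mean log2 levels of the 10 genes fell in the same order in both regions: Per1, Per2, Per3, Nr1d1, Nr1d2, Dbp and Tef were lowest in cage A, intermediate in cage B and highest in cage C, and Arntl, Npas2 and Cry1 were highest in cage A, intermediate in cage B and lowest in cage C. The largest span was that of Dbp, whose mean in cage C was above that in cage A by 3.52 on the log2 scale in the ascending colon and by 3.80 in the descending colon. The smallest was that of Cry1 in the ascending colon, at 0.37. The plot of levels by cage shows these steps for every library. On the linear scale the order of Cry1 in the ascending colon was different, with mean FPKM of 17.3 in cage B and 13.9 in cage A. There 1 library of cage B, ascending control B1, stood at 47.48 FPKM. The log2 order of Cry1 in cages B and C of the ascending colon also rested on that library. Without it cage C was above cage B by 0.13 (limma, genotype as a covariate).

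In the test of any difference between the 3 cages (limma's moderated F, genotype as a covariate), 4 of the 10 members passed in the ascending colon, where 1.32% of all genes passed. They were Dbp (adjusted p = 0.00114), Tef (0.0186), Per3 (0.0196) and Per2 (0.0268). In the descending colon 6 of 10 passed against 0.597% of all genes: Cry1 (adjusted p = 0.000769), Nr1d1 (0.0019), Nr1d2 (0.00284), Dbp (0.00376), Tef (0.00419) and Arntl (0.0072). Dbp and Tef passed in both regions, Per1 and Npas2 in neither.

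Cage A carries its own strain label, and it was set against the other 2 cages. Against the mean of cages B and C, cage A had lower Dbp, Tef, Per2 and Per3 in the ascending colon, 4 members among the 1.33% of genes that were lower, and 0 members among the 1.11% that were higher. Descending colon of cage A had lower Dbp, Nr1d1, Tef and Nr1d2, where 0.679% of genes were lower, and higher Cry1 and Arntl, where 0.352% were higher. The median difference of the 10 members was -1.02 in the ascending and -1.12 in the descending colon, and that of all genes was 0.019 and -0.028.

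**Figure D2:**
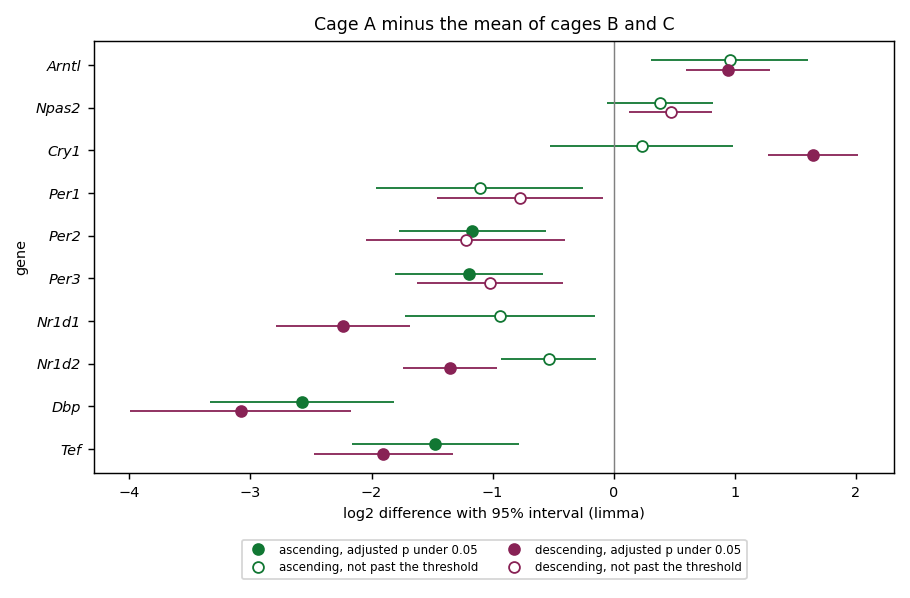
Difference of cage A from the mean of cages B and C for each gene, on the log2(FPKM + 1) scale with the 95% interval from limma, in the ascending (green) and descending (purple) colon. Filled points passed an adjusted p under 0.05; Dbp lies farthest from 0 in both regions, at -2.57 and -3.08.

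Arntl encodes BMAL1, the activating partner of the loop. In the descending colon its level was 14.07, 15.70, 17.78, 18.90 and 20.34 FPKM in cage A, 7.67, 10.95, 11.34, 11.95 and 13.69 FPKM in cage B, and 3.68, 4.43, 7.49, 8.16 and 8.78 FPKM in cage C. Every cage A library was above every library of the other 2 cages, and cages B and C overlapped. Cage A exceeded the mean of the others by 0.94 ± 0.16 (log2, SE; limma adjusted p = 0.0144). In the ascending colon it was 6.10 to 12.63 FPKM in cage A, 3.70 to 17.54 FPKM in cage B and 1.37 to 6.22 FPKM in cage C, and the 3 ranges overlapped. The difference was 0.96 ± 0.30 there and did not pass (adjusted p = 0.0982).

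Npas2, the paralogue of Clock that can replace it beside BMAL1, did not pass in either region. Its ascending levels were 16.61 to 23.84 FPKM in cage A and 8.16 to 18.97 FPKM in cage C. Its descending levels were 17.73 to 32.35 FPKM in cage A and 11.51 to 19.75 FPKM in cage C. These ranges overlapped in both regions, and the excess of cage A over the others was 0.38 ± 0.21 and 0.47 ± 0.16 (limma adjusted p = 0.306 and 0.17).

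Cry1 encodes a repressor that binds the activating pair late in the cycle. In the descending colon it was 12.06, 13.27, 14.66, 16.61 and 20.75 FPKM in cage A, 3.49, 4.65, 4.66, 6.13 and 7.19 FPKM in cage B, and 2.35, 2.59, 3.58, 3.87 and 5.03 FPKM in cage C. The lowest cage A library was above the highest of the other 10, and the excess was 1.64 ± 0.17 (adjusted p = 0.000263, limma). In the ascending colon the levels were 9.84, 11.14, 13.19, 14.33 and 21.11 FPKM in cage A, 6.35, 6.38, 11.76, 14.31 and 47.48 FPKM in cage B, and 6.68, 8.31, 9.98, 12.73 and 15.11 FPKM in cage C. The ascending ranges overlapped throughout, and the difference was 0.23 ± 0.36 (adjusted p = 0.739). A test of whether the cages differ by region gave an unadjusted p of 0.00893 for Cry1 and an adjusted p of 0.347, so the regional difference was not established.

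The 3 Per genes encode the partners of the CRY repressors, and Per1 and Per2 also respond to acute signals. Per2 in the ascending colon was 1.51, 1.69, 2.38, 2.47 and 3.04 FPKM in cage A, 2.86, 3.37, 3.38, 5.22 and 5.24 FPKM in cage B, and 4.25, 5.74, 8.15, 18.66 and 23.46 FPKM in cage C. Cages A and C did not overlap, and both overlapped cage B. The difference of cage A from the others was -1.17 ± 0.28 for Per2 and -1.20 ± 0.29 for Per3 (limma adjusted p = 0.0439 and 0.0415). In ascending mutants A1, A2 and A3 these levels rest on few reads, an estimated 12.6 to 20.6 for Per2 and 21.5 to 49.0 for Per3. Descending levels of Per2 were 3.57 to 11.46 FPKM in cage A, 6.42 to 35.18 FPKM in cage B and 10.94 to 44.06 FPKM in cage C. The descending differences were of like size, -1.22 ± 0.39 for Per2 and -1.02 ± 0.28 for Per3, and did not pass (adjusted p = 0.143 and 0.0912). Per3, whose promoter holds the D-boxes printed above, separated cage A from cage C in both regions, with 1.57 to 4.40 against 5.45 to 24.35 FPKM in the ascending and 3.96 to 8.55 against 11.61 to 38.89 FPKM in the descending colon. Per1 overlapped between all cages, and its difference was -1.11 ± 0.40 in the ascending and -0.78 ± 0.32 in the descending colon (adjusted p = 0.139 and 0.257).

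Nr1d1 and Nr1d2 encode REV-ERBα and REV-ERBβ, the repressors of Arntl. Nr1d1 in the descending colon was 11.23, 12.22, 14.52, 18.94 and 39.73 FPKM in cage A, 59.61, 69.25, 75.88, 80.31 and 89.25 FPKM in cage B, and 70.15, 72.31, 77.47, 88.54 and 190.35 FPKM in cage C. Cage A lay below the other cages without overlap, with a difference of -2.24 ± 0.26 (limma adjusted p = 0.000642), while cages B and C overlapped. In the ascending colon it was 22, 23.88, 30.14, 37.80 and 54.71 FPKM in cage A, 9.44, 45.37, 47.98, 51.35 and 112.59 FPKM in cage B, and 77.15, 84.11, 84.34, 91.37 and 100.34 FPKM in cage C. Here cage A lay below cage C, and cage B spread across both, so that the difference of cage A from the others was -0.94 ± 0.37 (adjusted p = 0.168). Nr1d2 differed by -1.35 ± 0.18 in the descending colon (adjusted p = 0.00231) and -0.54 ± 0.18 in the ascending colon (adjusted p = 0.12). Its descending range was 4.42 to 8.61 FPKM in cage A, 9.65 to 21 FPKM in cage B and 17.46 to 28.83 FPKM in cage C.

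Dbp, the D-box binding factor that is a direct E-box target of the activating pair, differed most. In the ascending colon it was 1.18, 1.51, 2.0, 2.12 and 4.85 FPKM in cage A, 2.23, 9.06, 11.25, 12.75 and 13.19 FPKM in cage B, and 20.28, 22.43, 37.08, 44.70 and 67.18 FPKM in cage C. All of cage C lay above all of cages A and B. Descending levels were 1.02, 1.20, 1.67, 2.11 and 2.32 FPKM in cage A, 5.18, 6.54, 18.31, 19.83 and 27.03 FPKM in cage B, and 17.53, 18.58, 35.76, 39.21 and 120.64 FPKM in cage C. There all of cage A lay below all of cages B and C. The difference of cage A from the others was -2.57 ± 0.36 (limma adjusted p = 0.00174) in the ascending and -3.08 ± 0.43 (adjusted p = 0.00282) in the descending colon. The lowest Dbp values rest on few reads, an estimated 5.6 in the shallowest case.

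Tef, a relative of Dbp that binds the same D-box, followed it at a smaller size. Its ascending levels were 2.31 to 6.24 FPKM in cage A, 1.79 to 10.84 FPKM in cage B and 10.70 to 34.17 FPKM in cage C. Its descending levels were 1.57 to 3.64 FPKM, 5.71 to 16.87 FPKM and 12.84 to 36.16 FPKM. Cages A and C did not overlap in either region, and cages A and B only overlapped in the ascending colon. The difference of cage A was -1.47 ± 0.32 (adjusted p = 0.0273) and -1.90 ± 0.27 (adjusted p = 0.00329, limma).

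Cages B and C carry the same strain label, and between them 0 members passed in either region by limma. The background was 0.00821% of genes higher and 0.0328% lower in cage C in the ascending colon, and 0.00818% and 0.0409% in the descending colon. At an unadjusted p under 0.05 by limma stood 8 members in the ascending and 7 in the descending colon. Of all genes, 570 of 12178 and 696 of 12219 did. The difference of cage C from cage B was largest for Dbp, 1.90 ± 0.42 in the ascending (95% interval 1.01 to 2.78, adjusted p = 0.274) and 1.45 ± 0.50 in the descending colon (0.39 to 2.51, adjusted p = 0.807). Tef was next, at 1.39 ± 0.38 and 0.96 ± 0.31. Arntl differed by -0.95 ± 0.36 and -0.79 ± 0.19, with intervals from -1.71 to -0.20 and from -1.20 to -0.39. The ascending values include ascending control B1, whose Dbp, 2.23 FPKM, was the lowest of cage B, and are not given without it.

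Counted by range, 6 members separated cages A and C completely in the ascending colon, against 8.3% of all genes, and 7 did so in the descending colon, against 4.46%. Cages A and B were separated by 0 members in the ascending and 6 in the descending colon, against 2.83% and 2.19% of all genes. Cages B and C were separated by 1 member, Dbp, in the ascending colon and by 0 in the descending colon, against 0.558% and 1.63%. Without ascending control B1, 3 members (Dbp, Per3 and Tef) separated cages A and B in the ascending colon, against 4.06% of all genes, and the other ascending counts of members were the same. Without descending control A2, 8 members separated cages A and C in the descending colon, against 16.9% of all genes. Whether the cages differed by region was tested over all 30 libraries, and 0 members passed where 0.113% of genes did. By the same limma F test 3 members, Cry1, Nr1d1 and Nr1d2, had an unadjusted p under 0.05, with adjusted p of 0.347, 0.474 and 0.445. Of all genes, 1024 of 12353 had an unadjusted p under 0.05 in that test.

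The ascending comparison depends on single libraries. Ascending control B1 had the highest Arntl (17.54 FPKM) and Cry1 (47.48 FPKM) of all ascending libraries and the lowest Nr1d1 (9.44 FPKM), Nr1d2 (5.99 FPKM) and Tef (1.79 FPKM), and its Dbp was 2.23 FPKM where the other 4 libraries of cage B had 9.06 to 13.19 FPKM. Its summed smooth muscle markers were also the highest of the ascending libraries, at 457.33 FPKM against at most 96.82 FPKM in cages A and C, and its goblet cell sum, 3006.55 FPKM, was the lowest. Without it 7 members passed in place of 4, Arntl (1.09, limma adjusted p = 0.0342), Nr1d1 (-1.16, 0.0130) and Nr1d2 (-0.64, 0.0118) being added. The count of all genes that passed for cage A ranged from 74 to 405 with 1 library left out. That of the fit without ascending control B1 is not given here, so the gain in members has no background. Of the 4 ascending calls, that of Dbp held with each of the 15 libraries left out in turn. The call of Tef was lost without control A1, control A2, mutant A2, mutant A3 or mutant C1 (adjusted p = 0.052 to 0.0942), that of Per2 in 10 of 15 cases (0.0527 to 0.131) and that of Per3 in 11 of 15 (0.054 to 0.12). Both were also lost with no filter on low values (0.0562 and 0.0543). Per2 kept its call only without controls B1, B2 or C1 or mutants B2 or C3, and Per3 only without controls B1, B2 or B3 or mutant C3. The 6 descending calls held in all 15 cases. With the controls or the mutants alone Dbp was -2.56 and -2.62 in the ascending and -3.10 and -3.03 in the descending colon. Other members moved more, descending Arntl being 1.37 in controls and 0.67 in mutants, ascending Nr1d1 -0.53 and -1.37, and ascending Cry1 -0.050 and 0.50. In the 7 or 8 libraries of such a fit at most 1 member passed.

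The summed goblet cell markers, 7 genes, were 8675.97 to 12317.50 FPKM in cage A and 3515.48 to 6294.15 FPKM in cage C of the ascending colon and did not overlap. Of the 72 combinations of 12 marker lists, region and pair of cages, 2 separated the cages, this one and 1 in the same comparison that is not reported here. Their part in the cage differences was not tested. In the descending colon the goblet cell sums of cage A (3321.31 to 12497.80 FPKM) and cage C (2629.10 to 6713.79 FPKM) overlapped.

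Arntl and Dbp differed between the cages in opposite directions. The difference of their log2 levels, Dbp minus Arntl, was -2.64 to -0.28 in cage A, -2.52 to 1.38 in cage B and 1.56 to 4.85 in cage C of the ascending colon. In the descending colon it was -3.28 to -2.33, -1.25 to 1.69 and 1.00 to 3.84. Cage C lay above cage A without overlap in both regions.

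**Figure D3:**
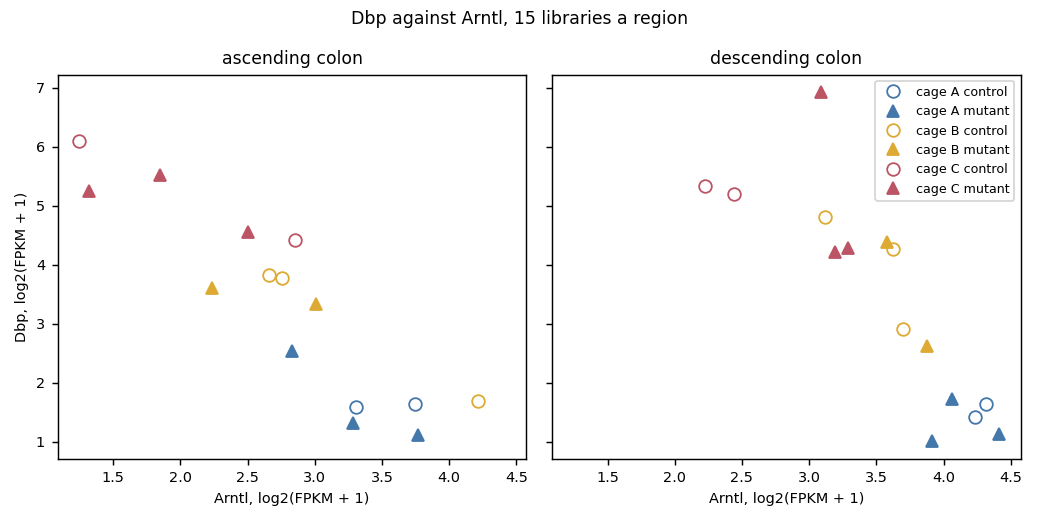
Dbp against Arntl, both log2(FPKM + 1), in 15 ascending (left) and 15 descending (right) libraries. Colours are cages, open circles controls and filled triangles mutants; the libraries run from high Arntl and low Dbp in cage A to low Arntl and high Dbp in cage C, and the cage B circle among the cage A points on the left is ascending control B1, with a Dbp of 2.23 FPKM.

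After the mean of each region and genotype was subtracted, all 21 pairs within the 7 genes that were highest in cage C correlated positively over the 30 libraries (Pearson r = 0.60 to 0.98). All 21 pairs between these genes and Arntl, Npas2 or Cry1 correlated negatively (-0.89 to -0.52). The libraries share 3 cages, and these are descriptions. With the mean of each region and cage subtracted in its place, so that cage differences were removed, the 21 pairs stayed positive (0.19 to 0.92, median 0.72) and the 21 cross pairs negative (-0.79 to -0.076, median -0.54). Without ascending control B1 the medians were 0.72 and -0.48, and 1 of the cross pairs turned positive (0.19). Against Dbp, the value within cages was 0.92 for Tef, 0.80 for Nr1d2, 0.79 for Per3 and Per1, 0.75 for Per2 and 0.63 for Nr1d1. It was -0.75 for Cry1, -0.64 for Arntl and -0.45 for Npas2. For Arntl it was -0.52 without ascending control B1.

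Descending mutant C1 stood apart within its cage. It had the highest descending values of Dbp (120.64 FPKM), Nr1d1 (190.35 FPKM), Nr1d2 (28.83 FPKM), Per1 (40.71 FPKM), Per2 (44.06 FPKM), Per3 (38.89 FPKM) and Tef (36.16 FPKM) and the lowest of Cry1 (2.35 FPKM). Its Arntl, 7.49 FPKM, was in the middle of cage C. It also correlated least with the other descending libraries over all genes, with a median r of 0.89. In cage B the descending libraries control B1 and mutant B1 had Dbp of 6.54 and 5.18 FPKM, and the other 3 had 18.31 to 27.03 FPKM.

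Among 11121 genes whose mean reached 1 FPKM, the levels most like those of Dbp across the 30 libraries, with region and genotype means subtracted, were those of Tef (r = 0.98), Nr1d2 (0.92), Lnx1 (0.91), Slc2a5 (0.91) and Ciart (0.91). Lnx1 encodes a ubiquitin ligase, Slc2a5 the fructose transporter GLUT5, and Ciart (CHRONO) a repressor of the clock. The most opposed to Dbp were Nfil3 (-0.88), Sgpp2 (-0.88), Arntl (-0.87), Lrrc8b (-0.83) and Rnf125 (-0.83). Nfil3 (E4BP4) encodes a repressor that competes for the D-box. For Arntl the most alike were Npas2 (0.92), Zfand5 (0.90), St5 (0.85), Rnf125 (0.83) and Nfil3 (0.82), and the most opposed Slc2a5 (-0.92), Tef (-0.88), Dbp (-0.87), Nr1d2 (-0.83) and Ciart (-0.82). Clock genes were 5 of the 10 genes listed for Dbp and 6 of the 10 listed for Arntl, and these correlations carry no test because cage is common to all of them.

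Of 17 other clock genes measured here, 13 could be tested. Nfil3 passed the cage test in both regions (limma F, adjusted p = 0.00707 and 0.0202). It was 5.06 to 13.00 FPKM in cage A and 1.03 to 3.45 FPKM in cage C of the ascending colon, and 2.75 to 8.96 against 0.56 to 1.43 FPKM in the descending colon, higher in cage A without overlap. Cage A exceeded the others by 0.99 ± 0.20 (adjusted p = 0.0184) and 1.35 ± 0.22 (adjusted p = 0.0111), and the ascending call was lost without control A1, mutant A2 or mutant A3 (0.0528 to 0.0903). Cry2 was lower in cage A of the descending colon, by a difference of -0.86 ± 0.17 (adjusted p = 0.0379), a call lost in 8 of 15 cases with a library left out. The other 11 did not pass, Clock, Bhlhe40 and Ciart among them. Ciart, though, was 0.06 to 0.79 FPKM in cage A and 1.25 to 11.78 FPKM in cage C of the ascending colon. In the descending colon it was 0.06 to 0.86 FPKM against 1.11 to 12.74 FPKM, again lower in cage A without overlap. Of 13 clock output genes, 11 glucocorticoid responsive genes, 8 temperature responsive genes and 12 immediate early genes, 0 passed the cage test in either region, with lowest adjusted p-values by limma of 0.173, 0.0962, 0.132 and 0.12. In the contrast of cage A alone, Junb, an immediate early gene, was lower in the ascending colon (-0.56 ± 0.14, adjusted p = 0.0495), a call lost in 10 of 15 cases.

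Some members differed between the ascending and descending colon. Against a background of 12.8% of genes higher and 25.1% lower in the ascending colon of controls, 2 members were lower there, Per2 and Per3, and 0 were higher. In mutants, where 14.3% of genes were higher and 29.7% lower, Arntl, Npas2, Per2 and Per3 were lower and Cry1 and Nr1d2 higher in the ascending colon. The median difference of all genes was -0.14 in controls and -0.16 in mutants, so the median of the members, -0.30 and -0.08, is to be read against that. In controls the share of members that passed, 2 of 10, lay below that of all genes.

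Per2 was lower in the ascending colon of both genotypes. It was 2.47 to 23.46 FPKM in ascending controls (median 5.22) and 6.42 to 23.54 FPKM in descending controls (median 17.27), and in mutants 1.51 to 18.66 (median 3.12) and 3.57 to 44.06 FPKM (median 9.89). The ranges of the regions overlapped in both genotypes, and within cage C as well. With cage as a covariate the difference was -1.29 ± 0.31 in controls (limma adjusted p = 0.00592) and -1.35 ± 0.34 in mutants (adjusted p = 0.004). Both calls held with each library left out, and that of the controls was lost without cage B (-1.09, adjusted p = 0.0864). Without ascending control B1 and descending control A2 it was -1.12 (adjusted p = 0.0213). Per3 differed by -0.76 ± 0.26 and -0.75 ± 0.26 (adjusted p = 0.0363 and 0.0255). Its call in controls was lost in 8 of 14 cases with a library left out, without the 2 libraries named above (-0.53, adjusted p = 0.111), under median-of-ratios scaling (0.076) and quantile normalization (0.0524), without cage A (0.125) and without cage B (-0.47, 0.274). Its call in mutants was lost without descending mutants A2 or B2 or ascending mutant C3 (0.0507 to 0.0562), under the same scaling (0.0838) and normalization (0.0885), and without cage A (0.155) or cage B (0.0692).

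Arntl in mutants was 1.49 to 12.63 FPKM in the ascending colon (median 5.38) and 7.49 to 20.34 FPKM in the descending colon (median 12.32). The difference was -1.08 ± 0.18 (limma adjusted p = 0.000133), and the call held under every alternative run, the 16 fits without 1 library included. In controls the difference of Arntl was -0.41 ± 0.27 (adjusted p = 0.247). It was -0.61 without ascending control B1 (adjusted p = 0.0448). Clock, the usual partner of BMAL1, was 6.97 to 10.81 FPKM in the 15 ascending and 14.62 to 23.61 FPKM in the 15 descending libraries, which did not overlap. It was lower in the ascending colon by a difference of -1.04 ± 0.10 in controls and -1.08 ± 0.11 in mutants (adjusted p = 5.98e-06 and 3.99e-07), although no cage difference passed for it.

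**Figure D4:**
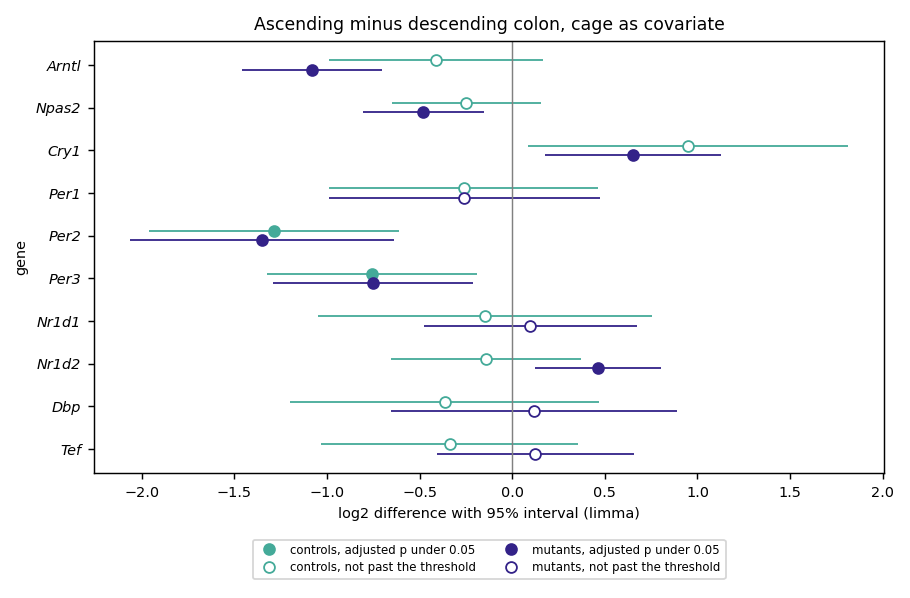
Ascending minus descending colon for each gene, on the log2(FPKM + 1) scale with the 95% interval from limma, in 14 control and 16 mutant libraries. Filled points passed an adjusted p under 0.05; Per2 and Per3 lie below 0 in both genotypes, Per2 at -1.29 and -1.35, and the intervals of Dbp, Tef, Nr1d1 and Per1 span 0.

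Npas2 in mutants differed by -0.48 ± 0.15 (adjusted p = 0.0191), a call lost under median-of-ratios scaling (0.11), under quantile normalization (0.0558) and without cage C (0.2). Cry1 was higher in the ascending colon of mutants by 0.65 ± 0.22 (adjusted p = 0.0266) and by 0.95 ± 0.40 in controls, which did not pass (0.0778). It passed in controls without ascending control B1 and descending control A2 (0.81, adjusted p = 0.025, limma). Nr1d2 was higher in mutants by 0.46 ± 0.16 (adjusted p = 0.0274). The mutant calls of Cry1 and Nr1d2 were each lost in 5 of 16 cases with a library left out. They were lost for Cry1 without descending mutants B2 or C2 or ascending mutants B1, C1 or C3 (0.0522 to 0.0586), and for Nr1d2 without descending mutants A2, A3 or B2 or ascending mutants A1 or B2 (0.0507 to 0.0604). Both were also lost without cage B (0.075 and 0.125). Without cage C Cry1 was 0.28 (adjusted p = 0.439, limma), and without cage A Nr1d2 was 0.19 (0.429). Dbp, Tef, Nr1d1 and Per1 did not pass in either genotype, with values from -0.36 to 0.12 that changed sign under some alternatives. The 95% interval of Dbp was -1.20 to 0.47 for the controls and -0.66 to 0.89 for the mutants. The summed posterior Hox genes divide the regions and the T cell markers were 3.58 to 18.32 FPKM in ascending against 0.47 to 2.28 FPKM in descending libraries. The part of such differences in cell content in the regional differences of the clock genes was not tested.

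Of the other clock genes 5 of 13 passed between regions in controls and 4 of 13 in mutants, where 12.8% of all genes were higher and 25.1% lower in controls and 14.3% and 29.7% in mutants. Those 2 shares, and those of the temperature responsive and immediate early genes below, were near or under that background. Nfil3 was higher in the ascending colon in both, by 0.95 ± 0.22 and 0.58 ± 0.20 (adjusted p = 0.00424 and 0.0251, limma). The kinase gene Csnk1d (-0.24 and -0.26) and Fbxw11 (-0.39 and -0.47), which encodes part of a ubiquitin ligase acting on PER proteins, were lower in both, and Timeless was lower in controls (-0.57 ± 0.15, adjusted p = 0.0104). The call of Nfil3 was lost without cage B in both genotypes (0.176 and 0.129), and in mutants also without cage A (0.101) and in 4 of 16 cases with a library left out. The call of Fbxw11 in controls was lost in 10 of 14 such cases (0.058 to 0.0867). Under median-of-ratios scaling Csnk1d did not pass in controls (0.559) or mutants (0.371). Among the output genes 8 of 13 passed in controls and 7 of 13 in mutants, 6 of them higher in each. Ppara, a nuclear receptor of fatty acid oxidation, was higher by 2.2 ± 0.26 and 2.38 ± 0.12, and Lonrf3 was lower, at -1.27 ± 0.17 and -1.24 ± 0.15. Of the glucocorticoid responsive genes 6 of 11 passed in controls, led by Pdk4 (2.85 ± 0.24) and Zbtb16 (-1.99 ± 0.23), and 8 of 11 in mutants, led by Pdk4 (3.63 ± 0.19) and Fkbp5 (1.59 ± 0.13). Of the temperature responsive genes 3 of 8 passed in each genotype. Hspa1a, which encodes an inducible HSP70 chaperone, was higher in the ascending colon by 0.75 ± 0.24 in controls and 0.96 ± 0.17 in mutants, Hspa1b by 0.86 ± 0.17 in mutants, and Hsp90aa1 was lower in controls (-0.70 ± 0.11). Of the immediate early genes 2 of 12 passed in controls and 3 of 12 in mutants, with Jun higher by 0.88 ± 0.29 and 0.98 ± 0.18, Egr1 higher in mutants (0.89 ± 0.32) and Ier2 lower in controls (-0.48 ± 0.11). The calls of Jun in controls and Egr1 in mutants were lost in 6 of 14 and 6 of 16 cases with a library left out.

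No member differed between mutants and controls beyond the spread between libraries. In the ascending colon 0 of 10 passed and 0 of 10 had an unadjusted p under 0.05, and the same held in the descending colon. In all, 0.00% of genes passed in either direction in either region by limma, with 1396 and 267 genes at an unadjusted p under 0.05. Dbp was 2.0 to 67.18 FPKM in ascending controls (median 12.75) and 1.18 to 44.70 FPKM in ascending mutants (median 10.16), and 1.67 to 39.21 FPKM (median 18.31) and 1.02 to 120.64 FPKM (median 11.36) in the descending colon. The genotypes overlapped over nearly their whole range.

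**Figure D5:**
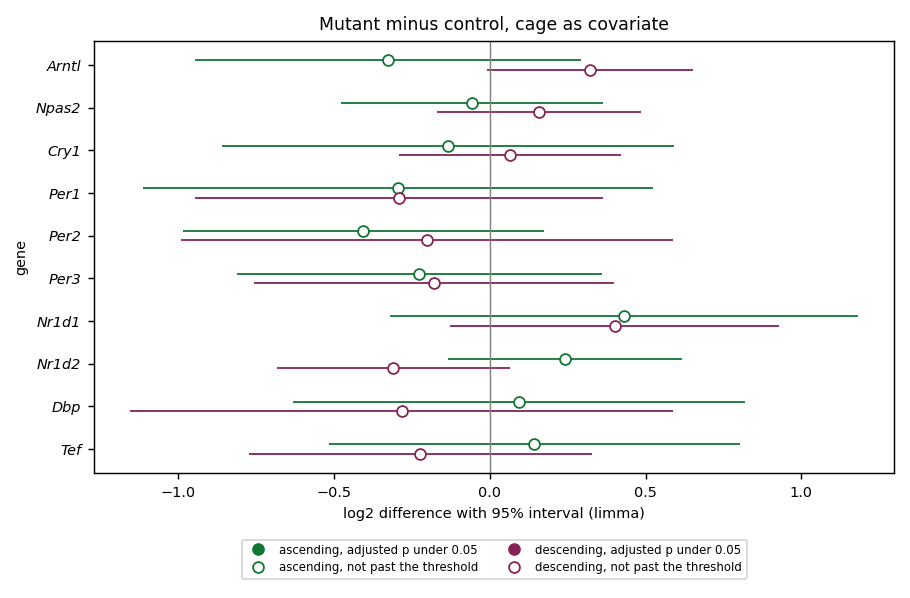
Mutant minus control for each gene with cage as a covariate, on the log2(FPKM + 1) scale with the 95% interval from limma, in the ascending (green) and descending (purple) colon. All 20 intervals include 0, that of Arntl in the descending colon by the least, at -0.0093 to 0.65.

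The intervals bound the size of these differences. For Dbp the mutant minus control difference was 0.093 ± 0.34 in the ascending (95% interval -0.63 to 0.82) and -0.28 ± 0.41 in the descending colon (-1.15 to 0.59). For Nr1d1 it was 0.43 ± 0.35 (-0.32 to 1.18) and 0.40 ± 0.25 (-0.13 to 0.93). For Arntl it was -0.33 ± 0.29 (-0.95 to 0.29) and 0.32 ± 0.15 (-0.0093 to 0.65). The intervals of Npas2 were -0.48 to 0.36 and -0.17 to 0.48. Nr1d2 was 0.24 ± 0.18 and -0.31 ± 0.17. The values of Per1, Per2 and Per3 in the 2 regions were -0.18 to -0.41 with SE of 0.27 to 0.39, and none passed.

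The difference between the genotype effects of the 2 regions was tested with an interaction term in the 30 libraries, and 0 members passed, with 0.00% of genes passing in either direction. Only Nr1d2 had an unadjusted p under 0.05 by limma (0.55 ± 0.26, adjusted p = 1). Whether the genotype effect depended on cage was tested with a moderated F in each region. In the ascending colon 0.00% of genes and 0 members passed (1264 genes and 0 members at an unadjusted p under 0.05). In the descending colon 0.00818% of genes and 0 members passed. Arntl, among 540 genes at an unadjusted p under 0.05, had an unadjusted p of 0.0162 (adjusted p = 0.879, moderated F). Descending Arntl in cage C was 3.68 and 4.43 FPKM in the controls and 7.49, 8.16 and 8.78 FPKM in the mutants, which did not overlap. In cage A it was 17.78 and 18.90 FPKM in the controls and 14.07, 15.70 and 20.34 FPKM in the mutants. The genotypes overlapped in cages A and B. With 2 controls and 3 mutants the separation in cage C was not tested, and the share of all genes that separate so was not counted.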

How the data were processed

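Single reads of 50 nt were sequenced from total RNA of ascending and descending mouse colon after RiboErase removal of rRNA (Kapa Hyper Prep), per the labels' protocols. The deposited table holds FPKM computed by the authors, with 2 decimals and no counts. bcl2fastq 2.17, STAR and DESeq2 were used with GRCm38 (mm10), per the submitters' processing notes; for the gene counter, its strand setting and the annotation release, the sources used here say nothing. Of the 14475 gene identifiers, 14472 were found in GENCODE M21.

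Values were taken as log2(FPKM + 1). A gene entered a fit when its mean there reached 0.5 FPKM, and it was tested with limma 3.58.1 (R 4.3.3; eBayes with trend), two-sided, at a Benjamini-Hochberg adjusted p under 0.05 over all genes of the fit. Cages were compared in each region with genotype as a covariate, genotypes and regions with cage as a covariate, and differences between 3 cages with a moderated F. The fits were tested on simulated data. The 15 libraries of a region, or all 30 for interactions, entered a fit, and regions were compared in the 14 control or the 16 mutant libraries.

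Named genes are the 10 members and, from fixed lists, those that passed: at most 6 other clock genes and 2 genes each of the output, glucocorticoid, temperature and immediate early lists a comparison. For Dbp and Arntl, the 5 genes most alike and the 5 most opposed over 30 libraries were named, leaving out predicted genes. The members and lists were chosen with earlier results of these data known. Values of some listed genes are not reported here. No 2 libraries were identical. Depth was estimated from the steps in low FPKM values, of which 72.9 to 84.3% lay within 0.2 of a step, and entered no test. Alternatives were other pseudocounts, filters, scalings and weights, robust moderation, 1 genotype or fewer cages, no cage covariate, each library left out, and a replicate block.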

Additional observations from a re-analysis of the deposited data

Results flagged for a closer look

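Of 100 groups of 5 to 8 libraries, 8 had a library whose distance to the next was large against the range of its group on the log2 scale (Dixon's criterion). Chance flags about 1 group in 20. In cage B of the ascending colon control B1 was lowest for Dbp (2.23 FPKM, the next lowest being 9.06 FPKM), Nr1d2 (5.99 FPKM, next 13.23 FPKM) and Tef (1.79 FPKM, next 7.77 FPKM), and among the 7 ascending controls it was highest for Cry1 (47.48 FPKM, next 15.11 FPKM). In cage C of the descending colon mutant C1 was highest for Nr1d1 (190.35 FPKM, next 88.54 FPKM), and among the 8 descending mutants it was highest for Per3 (38.89 FPKM, next 11.86 FPKM). In cage A of the descending colon mutant A3 was lowest for Tef (1.57 FPKM, next 3.18 FPKM). Among the 7 ascending controls control C2 was highest for Per2 (23.46 FPKM, next 5.74 FPKM).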

How the results depend on the processing

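The counts of members that passed in the cage comparisons were the same as the main counts, or near them, under 5 alternatives. These were a pseudocount of 0.1, robust moderation, quantile normalization, median-of-ratios scaling and a filter at 2 FPKM. With no filter on low values 2 members passed in cage A of the ascending colon in place of 4. Array quality weights, whose fit stopped before it converged in at least 1 case, gave 9 members and 1579 genes in the ascending cage test, 9 and 1077 for cage A there, 4 and 243 for cage C against cage B, 973, 1234 and 16 genes in the 3 descending cage comparisons, 382 genes for cage by region, 746 and 1 genes for mutant against control in the ascending and descending colon, 2 genes for genotype by cage in the descending colon and 4 members between regions in controls. The cause was not tested. Controls alone gave 0 and 1 members in the ascending and descending cage test (7 and 4 genes), 0 and 1 for cage A (5 and 7 genes), and 1 and 0 genes for cage C against cage B. Mutants alone gave 1 and 0 members (32 and 10 genes), 1 and 0 for cage A (71 and 10 genes), and 2 and 2 genes for cage C against cage B. These fits hold 7 or 8 libraries. A pseudocount of 0.1 gave 1 gene for genotype by cage in the ascending colon, where the main count was 0.

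Between regions, controls had 1 member under median-of-ratios scaling, 1 under quantile normalization and 0 without cage B (2069 genes), and 2567 genes without cage C. Mutants had 3 members without cage B and 3528 genes without cage C. Without cage B, mutants differed from controls in 652 genes of the ascending colon but in 0 members. Without ascending control B1 and descending control A2, cage by region gave 23 genes and 0 members. That alternative, and the counts of members that separated the cages without 1 of these libraries, were chosen after seeing the data.

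Signs turned only in members that did not pass. In controls between regions, Nr1d1 was 0.0086 under median-of-ratios scaling, 0.054 with array quality weights, 0.77 without cage B and 0.096 without the 2 libraries just named, where Per1 was 0.024. Nr1d2 was 0.0066 under that scaling, and without cage B Nr1d2, Dbp and Tef were 0.17, 0.036 and 0.12. In mutants Nr1d1 was -0.016 under quantile normalization and -0.11 without cage A, Dbp -0.035 without cage A and Per1 0.023 with array quality weights. For cage C against cage B, Cry1 was 0.12 with array quality weights and 0.078 in mutants alone (ascending), and Per2 -0.067 with the weights (descending). Cry1 was -0.050 for cage A in ascending controls alone. For mutant against control in the ascending colon, Dbp was -0.11 with array quality weights, and without cage B Dbp and Nr1d1 were -0.046 and -0.026.

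With 1 library left out, counts of members ranged from 1 to 7 in the ascending cage test, 1 to 7 for cage A there, 1 to 3 between regions in controls and 3 to 6 in mutants. Counts of genes ranged from 44 to 581 and 33 to 176 in the ascending and descending cage test, 74 to 405 and 46 to 384 for cage A, 3 to 23 and 0 to 7 for cage C against cage B, 7 to 150 for cage by region, 0 to 381 and 1 to 132 for genotype by cage, and 0 to 170 for mutant against control in the ascending colon. The highest of the last 3 came without ascending mutant B2, descending control A1 and ascending mutant B1. Differences ranged from -0.35 to 0.25 for Nr1d1 and -0.27 to 0.030 for Nr1d2 between regions in controls. In mutants they ranged from -0.046 to 0.42 for Dbp, -0.063 to 0.26 for Nr1d1 and -5.4e-05 to 0.29 for Tef. For cage C against cage B they ranged from -0.56 to 0.13 for Cry1 (ascending) and -0.065 to 0.64 for Per2 (descending), and from -0.13 to 0.33 for Dbp between genotypes in the ascending colon.

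Whether the numbers in the titles pair the libraries could not be settled. With the mean of each region, cage and genotype subtracted, same-numbered ascending and descending libraries correlated at -0.26 to 0.36 over 15 pairs. In a group of 2 libraries both pairs have the same value by construction, so the 15 values are not independent. Of the 15, 4 were over 0.1 and 4 libraries correlated best with their own number. Mutants C1, C2 and C3 were among these (0.36, 0.27 and 0.18). Same-numbered controls and mutants correlated at -0.18 to 0.38 over 12 pairs. With the replicate number as a block, 0 members passed between genotypes in either region. With cage, genotype and number as a block, 2 members passed between regions in controls and 6 in mutants, as without it, with 4236 and 5219 genes. That block was chosen after seeing the data for the difference between the regional genotype effects, where it gave 0 members. Values near 1 FPKM rest on few reads, and no interval was set for a single library because FPKM give no counts.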
